A study of Mus musculus with 6 samples.

Results

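The genes of cholesterol and fatty acid synthesis were examined in 6 mouse brain tumours, with 32 member genes chosen by symbol. Of these, 28 had at least 1 probe on the array and 26 had a probe that was kept, that is, one whose detection p-value was under 0.05 in 3 or more of the 6 arrays. The 26 genes were read by 33 kept probes of 14606 tested in all. The members Mvk, Fdft1, Acat2 and Nr1h2 are not analysed here because no probe was matched to them, and Sc4mol was read through the probe of its current symbol, Msmo1. The only Abca1 probe was not detected on any array, and the only Fasn probe was detected on 2 arrays, so both fell short of the filter.

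The tumours grew from transplanted cells in the brains of SCID mice, which lack functional T and B lymphocytes, and were taken when neurological symptoms appeared. The 3 tumours called Olig2_het below came from Olig2cre/+;p53fl/fl;hEGFRvIII cells and the 3 called Olig2_null from Olig2cre/cre;p53fl/fl;hEGFRvIII cells. Floxed p53 and human EGFRvIII were thus common to both groups. EGFRvIII is a truncated and constantly active EGF receptor. The groups differ in whether cre sits at 1 or both alleles of Olig2, a transcription factor of oligodendrocyte precursors and many gliomas. The labels give an age of 45, 50 and 47 days for numbers 1, 2 and 3 of each group. The sources used here do not give the promoter of the transgene or say whether a group's tumours descend from several cell lines. The p-values therefore cover only the spread among these 6 tumours, which may be partly technical. Each tumour is a mixture of transplanted cells and cells of the host brain. In such bulk samples, fewer cells of a type and less RNA per cell cannot be told apart.

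Between 53.4% and 57.6% of probes were detected per array. The Olig2_null arrays correlated over tested probes at 0.912 (replicates 1 and 2), 0.886 (1 and 3) and 0.928 (2 and 3). Replicate 3 was the nearest of them to the Olig2_het arrays, at 0.914 to 0.941. Replicate 2 correlated with the Olig2_het arrays at 0.83 to 0.89 and replicate 1 at 0.766 to 0.837. The Olig2 probe read log2 intensities of 7.76, 7.85 and 7.13 in Olig2_het and 6.41, 5.86 and 6.44 in Olig2_null (difference -1.34 ± 0.30, SE, limma adjusted p = 0.0555). Markers of brain were present: 13 of 14 astrocyte markers and 11 of 15 neuron markers had a kept probe, and none of these was undetected on every array of either group.

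Cells make cholesterol from acetyl-CoA through mevalonate and squalene, and then reshape the first sterol ring, lanosterol, step by step. The pathway is driven by the transcription factors SREBP1 and SREBP2 (genes Srebf1 and Srebf2), which Scap escorts out of the endoplasmic reticulum when sterols are low and which the Insig proteins hold back when sterols are high. Surplus sterol acts through the LXR receptors (Nr1h2 and Nr1h3), which raise the export genes Abca1, Abcg1 and Apoe. Because little plasma cholesterol crosses the blood-brain barrier, the brain makes its own, and myelinating oligodendrocytes are among its heaviest producers.

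Most genes of cholesterol and fatty acid synthesis differed little in the mean between the 2 genotypes, and 1 probe, of Insig2, was the single call, lower in Olig2_null. Of the 33 kept probes 1 passed the threshold (limma adjusted p under 0.05 over all tested probes), against 4.42% of all tested probes (2.65% higher and 1.77% lower in Olig2_null). With 1 probe per gene, the brightest, 0 of 26 probes rose and 1 fell, 14 had a higher mean in Olig2_null and 12 a lower one, and the median difference was 0.04 on the log2 scale, beside 0.02 over all tested probes. The median size of the difference, sign aside, was 0.30 for the members and 0.42 for all tested probes. The 3 tumours of one group lay wholly above or below those of the other at 8 of the 33 probes (4 higher and 4 lower in Olig2_null), or 24.2%, where 31.2% of all tested probes did so (15.8% higher and 15.4% lower). At an unadjusted p under 0.05 the member probes numbered 5, or 15.2% against 25.3% of all tested probes.

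**Figure D1:**
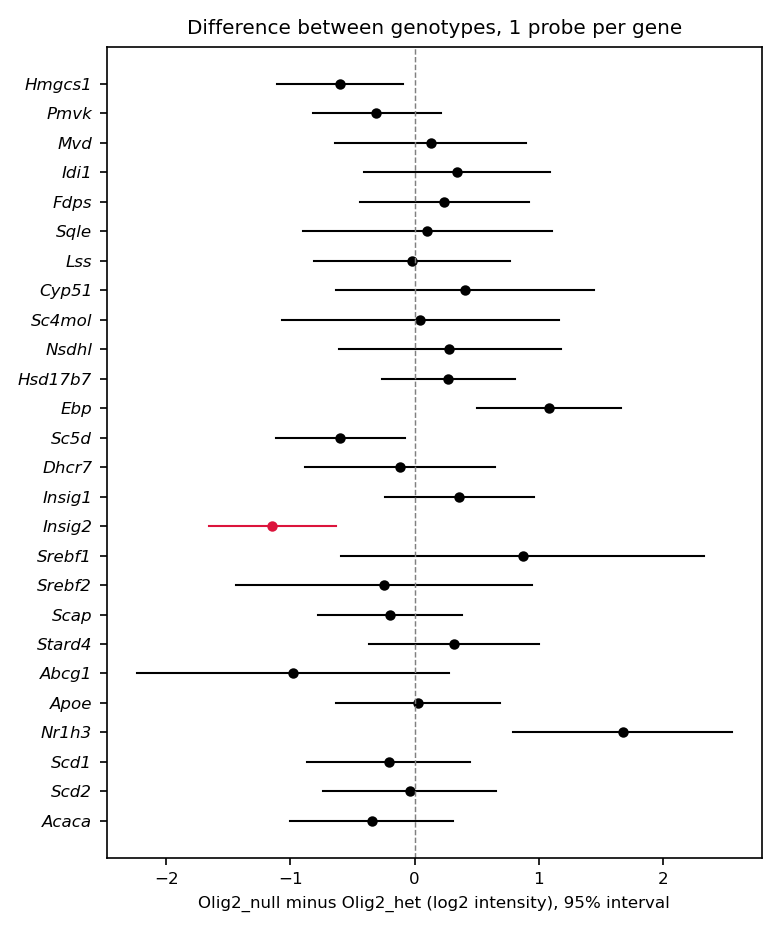
Difference in log2 intensity (Olig2_null minus Olig2_het, horizontal axis) of the brightest kept probe of each of 26 genes (vertical axis). Points are limma estimates over 3 tumours per group, lines their 95% intervals, and red marks an adjusted p under 0.05. The Insig2 probe stands at -1.15 and is the only red one, and 21 of the 26 intervals include 0.

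These small differences can be bounded. The 95% interval of the difference included 0 for 21 of the 26 genes and lay wholly between -1 and 1 for 11 of them. The intervals of the other genes, Insig2 among them, reached a difference of 1 log2 unit or more in size. The difference was under 0.5 in size for 19 of the 26 genes.

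The enzymes from acetyl-CoA to squalene showed no call. Hmgcs1, the cytosolic HMG-CoA synthase that opens the pathway, read log2 intensities of 13.93, 13.82 and 13.92 in Olig2_het and 13.19, 13.21 and 13.47 in Olig2_null. Every Olig2_null tumour lay below every Olig2_het tumour, and the groups differed by -0.60 ± 0.22 (SE, n = 3 per group), which did not pass (limma adjusted p = 0.146). Pmvk, phosphomevalonate kinase, read 8.67, 8.42 and 8.53 against 8.26, 8.33 and 8.11. Its groups did not overlap either, and the difference was -0.31 ± 0.22 (adjusted p = 0.431). The groups overlapped for the other 4 enzymes of this stretch. Mvd, the mevalonate diphosphate decarboxylase, differed by 0.13 (95% interval -0.64 to 0.90), and Fdps, farnesyl diphosphate synthase, by 0.24 (-0.44 to 0.92). Idi1, the isopentenyl diphosphate isomerase, differed by 0.34 (-0.41 to 1.09) and was detected on 2 of the 3 Olig2_het arrays. Sqle, squalene epoxidase, a rate-controlling enzyme of the pathway, read 11.87, 11.51 and 11.46 in Olig2_het and 11.01, 12.64 and 11.50 in Olig2_null. Here 1 Olig2_null tumour was the lowest of the 6 and another the highest. Its difference was 0.10 (-0.90 to 1.11), and the other Sqle probe differed by 0.39 (-1.23 to 2.00).

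In the ring-modifying steps, Ebp came nearest to a call. Ebp, a sterol isomerase of the endoplasmic reticulum, read 9.27, 9.09 and 9.45 in Olig2_het and 10.20, 10.65 and 10.20 in Olig2_null. All Olig2_null tumours were higher, by 1.08 ± 0.25 (SE, n = 3 per group), a 2.12-fold difference that missed the threshold (limma adjusted p = 0.0569). It passed in 4 of 15 other settings, with an adjusted p between 0.0185 and 0.228. Among the 4 are no background correction and the authors' normalized values, which gave equal results. Sc5d, the sterol desaturase next in the same route, read 7.48, 7.57 and 7.62 in Olig2_het and 6.76, 7.10 and 7.01 in Olig2_null. It went the other way, with no overlap and a difference of -0.60 ± 0.22 (adjusted p = 0.150). Hsd17b7, a ketosteroid reductase of the C4 demethylation complex, read 11.02, 10.94 and 10.96 against 11.45, 11.03 and 11.28. The groups just failed to overlap, and the difference was 0.27 ± 0.23 (adjusted p = 0.501).

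The other 5 enzymes of the ring-modifying steps had overlapping groups. Lss, which closes squalene epoxide to lanosterol, differed by -0.02 (95% interval -0.81 to 0.77). Cyp51, the lanosterol demethylase, read 9.97, 9.53 and 9.61 in Olig2_het and 9.47, 11.10 and 9.77 in Olig2_null, a difference of 0.41 (-0.63 to 1.45). A single Olig2_null tumour, replicate 2, lay far above the other 5. Sc4mol, the C4 methylsterol oxidase, differed by 0.04 (-1.07 to 1.16), and Dhcr7, the reductase of the last step, by -0.12 (-0.88 to 0.65). Nsdhl, the dehydrogenase that works with Sc4mol, was read by 4 kept probes, which differed by 0.27 to 0.31.

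**Figure D2:**
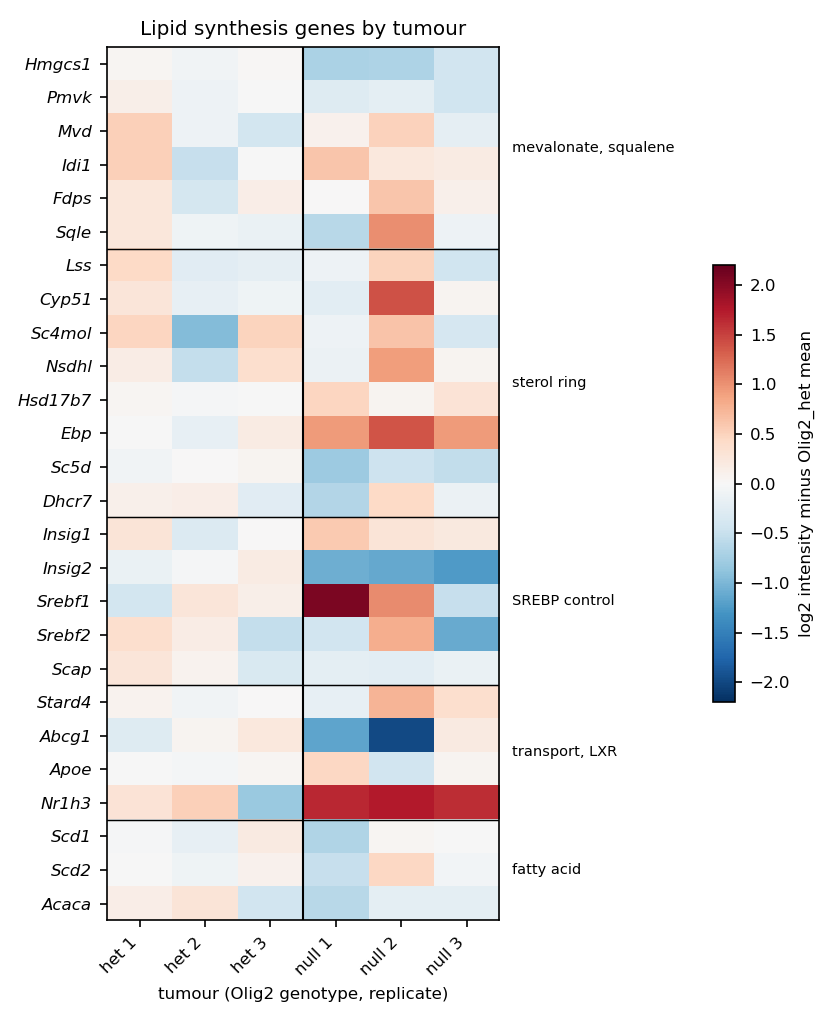
Log2 intensity of 26 genes (rows, grouped by role) in 6 tumours (columns), each relative to the mean of the 3 Olig2_het tumours, from blue (lower) to red (higher). The Olig2_null replicate 2 column holds the highest value of the 6 tumours for 12 of the 26 genes, among them Sqle and Cyp51.

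Many enzymes had their highest level in a single tumour, Olig2_null replicate 2. Among the 14 sterol synthesis enzymes, Olig2_null replicate 2 was the highest of the 6 tumours for 8 (57.1%, against 22.4% of all tested probes) and the lowest for none (18% of all tested probes). It lay above both other Olig2_null tumours for 11 of the 14, with a median of 0.55 log2 units above their mean, beside 0.01 over all tested probes. The gap was 1.48 for Cyp51, 1.38 for Sqle, 0.96 for Nsdhl, 0.88 for Sc4mol and 0.82 for Dhcr7. It was negative for Hsd17b7 (-0.33), Idi1 (-0.16) and Hmgcs1 (-0.12). Srebf2, which encodes the SREBP that governs sterol synthesis, read 9.62, 9.41 and 8.72 in Olig2_het and 8.83, 10.04 and 8.14 in Olig2_null. Replicate 2 was thus also the highest of the 6 for Srebf2, 1.56 above the mean of the other Olig2_null tumours, while the groups differed by -0.25 (95% interval -1.44 to 0.95). Olig2_het replicate 2 in turn was the lowest of the 6 for 6 of the 14 enzymes (42.9%, against 12.2% of all tested probes). These are descriptions of single tumours, with no test. Relative to the Olig2_het mean, the median of the 14 enzymes in replicates 1 to 3 was 0.21, -0.15 and -0.01 for Olig2_het, and -0.13, 0.50 and -0.12 for Olig2_null. Without Olig2_null replicate 2 the differences of Mvd, Sqle, Cyp51, Sc4mol and Nsdhl were -0.05, -0.36, -0.08, -0.25 and -0.04, and the median over the 26 genes was -0.21. None of the 5 passed with or without it. Without Olig2_het replicate 2 the same 5 differences were 0.08, 0.05, 0.32, -0.44 and 0.02, and the median over the 26 genes was -0.02.

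A feature that the choice of genes did not use was shared in their promoters. In a RefSeq table for build GRCm38.p6, which gives 250 bases before and 50 after a transcription start, 12 of the 14 enzymes had an entry, and all 12 held the CCAAT box, the core letters bound by NF-Y, a partner of SREBP. The motif searched was CCAAT on both strands, so that it reads ATTGG on the other one. Of the tested genes with an entry 43.3% held it, as did 41.1% of all genes listed there. Of the other tested members, 4 of 8 with an entry held it (50%), and Acaca, Apoe, Nr1h3 and Scap did not. The sterol regulatory element, searched as TCACNCCAC on both strands, was found in 1 of the 12, Hmgcs1, beside 1.43% of the tested genes. The GC box GGGCGG was found in 11 of the 12, beside 68.2% of tested genes. These are exact matches of letters, so a variant of an element is not counted and stays in lower case below. An enzyme without a match is thus not shown to lack the element. Genes with several starts were searched at each. The stretches before the start are printed for 4 of these genes, with both motifs in capitals: Hmgcs1 and Sc5d, lower in every Olig2_null tumour, Ebp, higher in every one, and Cyp51, high in Olig2_null replicate 2. They lie at chr13:119690101-119690350 (plus strand), chr9:42264301-42264550, chrX:8193513-8193762 and chr5:4104698-4104947 (minus strand), and are read towards the gene.
Hmgcs1: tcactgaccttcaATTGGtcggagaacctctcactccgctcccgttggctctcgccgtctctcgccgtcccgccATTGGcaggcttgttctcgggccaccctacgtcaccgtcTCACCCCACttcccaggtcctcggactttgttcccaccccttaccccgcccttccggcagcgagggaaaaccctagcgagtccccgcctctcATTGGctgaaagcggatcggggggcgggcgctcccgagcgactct
Sc5d: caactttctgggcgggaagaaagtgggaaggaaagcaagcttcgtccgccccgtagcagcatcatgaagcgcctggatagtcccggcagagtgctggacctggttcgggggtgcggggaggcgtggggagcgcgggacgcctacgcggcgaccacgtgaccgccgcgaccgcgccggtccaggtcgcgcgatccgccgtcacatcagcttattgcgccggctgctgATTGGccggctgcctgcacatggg
Ebp: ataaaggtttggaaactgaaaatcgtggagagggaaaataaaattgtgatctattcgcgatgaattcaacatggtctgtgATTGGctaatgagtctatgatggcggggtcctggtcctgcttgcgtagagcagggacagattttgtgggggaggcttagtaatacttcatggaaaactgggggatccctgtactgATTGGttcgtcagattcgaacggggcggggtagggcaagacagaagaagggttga
Cyp51: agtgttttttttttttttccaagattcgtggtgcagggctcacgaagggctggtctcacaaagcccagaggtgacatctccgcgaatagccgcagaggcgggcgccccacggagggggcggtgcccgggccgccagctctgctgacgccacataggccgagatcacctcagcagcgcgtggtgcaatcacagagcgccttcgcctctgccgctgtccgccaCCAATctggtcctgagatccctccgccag
The CCAAT box nearest to the start ended 41 bases before it in Hmgcs1, 20 in Sc5d, 51 in Ebp and 25 in Cyp51, and the sterol regulatory element of Hmgcs1 ended 129 bases before its start. The motif was thus present in enzymes that differed in opposite directions.

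Among the brightest probes of the 5 genes that control SREBP, 1 fell, that of Insig2, and none rose (1.77% of all tested probes fell and 2.65% rose). Insig2, a membrane protein that retains Scap and its SREBP cargo in the endoplasmic reticulum, was read by its brighter probe (ILMN_2690256) at 10.30, 10.41 and 10.61 in Olig2_het and 9.37, 9.32 and 9.20 in Olig2_null. The values of each group lay close together and the groups were well apart. The probe fell by 1.15 on the log2 scale (SE 0.22, n = 3 per group), a 2.21-fold difference (limma adjusted p = 0.0408). The call was narrow: it passed in 8 of 15 other settings, with differences from -1.22 to -0.34, and was lost without any 1 of Olig2_het replicates 1, 2 or 3 or Olig2_null replicates 1 or 2 (adjusted p = 0.102, 0.179, 0.116, 0.0745 and 0.0933). It was also lost with the replicate number added to the limma model as a block (adjusted p = 0.0522).

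The other kept probe of Insig2 did not fall. ILMN_1216822 read 9.57, 9.39 and 9.72 in Olig2_het and 9.89, 10.44 and 9.73 in Olig2_null. Every Olig2_null tumour was higher, the lowest of them only just, and the difference was 0.46 (95% interval -0.18 to 1.10, adjusted p = 0.343). The platform annotation assigns the probe that fell to the transcript NM_133748 and the other to NM_178082 of the same gene, and a further probe, also of NM_178082, was not detected on any array. Averaged over both kept probes, Insig2 differed by -0.34 (adjusted p = 0.413), so the call belongs to 1 probe and not to the gene as a whole. In mouse liver the gene is known to make transcripts from separate first exons under separate control. The RefSeq table lists 3 starts for Insig2. The outermost holds a CCAAT box in the printed bases (chr1:121332663-121332839, GRCm38.p6, minus strand, bases outside the annotated gene only, motif in capitals), and which start serves which probe is not given in the sources used here.
Insig2: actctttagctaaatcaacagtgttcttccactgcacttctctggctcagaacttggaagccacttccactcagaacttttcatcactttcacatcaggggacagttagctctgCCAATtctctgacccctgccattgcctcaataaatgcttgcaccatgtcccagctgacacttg

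**Figure D3:**
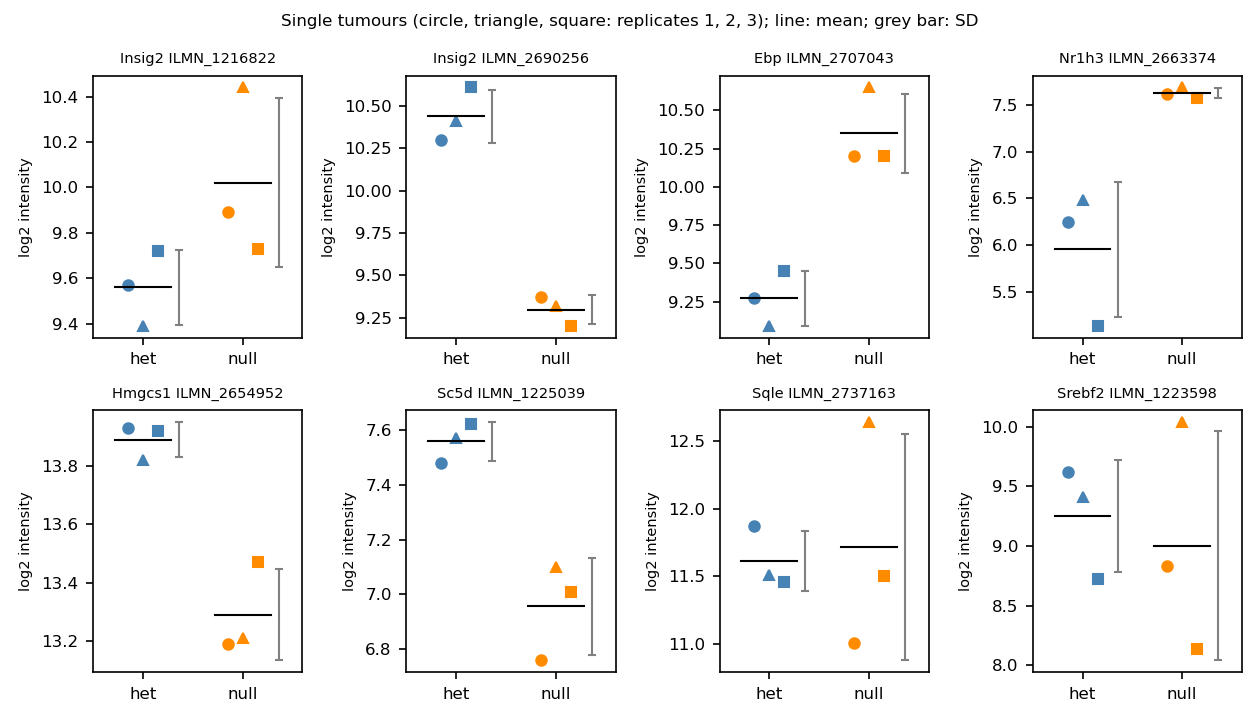
Log2 intensity (vertical axis, a separate scale per panel) in the 3 Olig2_het (blue) and 3 Olig2_null (orange) tumours for both kept probes of Insig2 and for Ebp, Nr1h3, Hmgcs1, Sc5d, Sqle and Srebf2. Circles, triangles and squares are replicates 1, 2 and 3, black lines group means and grey bars their SD. The Insig2 probes lie in opposite order, 10.44 against 9.30 for the one and 9.56 against 10.02 for the other.

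The other controllers of SREBP did not pass. Insig1, the sterol-induced relative of Insig2, differed by 0.36 (95% interval -0.24 to 0.96) at its brightest probe and by 0.70 and 0.62 at its other kept probes, which were both highest in Olig2_null replicate 2, at 9.59 and 9.24. Srebf1, the SREBP of fatty acid synthesis, read 6.57, 7.24 and 7.09 in Olig2_het and 9.04, 8.01 and 6.45 in Olig2_null. The Olig2_null tumours ran from the highest to the lowest of the 6, and the difference was 0.87 (-0.59 to 2.33, adjusted p = 0.435). Without Olig2_null replicate 3 it was 1.56 and also did not pass. Scap, the escort protein, differed by -0.20 (-0.78 to 0.38).

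In sterol transport and LXR signalling, Nr1h3 was higher in every Olig2_null tumour. Nr1h3 encodes LXR alpha, the LXR of macrophages, liver and fat, and read 6.25, 6.48 and 5.13 in Olig2_het and 7.62, 7.69 and 7.58 in Olig2_null. The Olig2_null values were nearly equal and lay above all Olig2_het values, one of which came from an array without detection. The difference of 1.68 ± 0.37 (SE, n = 3 per group), or 3.20-fold, fell short of the threshold (limma adjusted p = 0.0555). With the undetected value raised to the lowest detected signal of its array it was 3.12-fold. The log2 difference was 0.73 in place of 1.68 on signals without background correction and on the authors' normalized values. It passed in 1 of 14 other settings, that with the replicate number as a block in limma (adjusted p = 0.0406). The second Nr1h3 probe was not detected on any array. Macrophage and microglia markers are given beside it: all 13 measured of 17 named had a higher mean in Olig2_null (51.5% of all tested probes did), 2 of them past the threshold (2.65% of all tested probes), and their summed linear intensity ran from 8940 to 14100 in Olig2_het and from 16700 to 41400 in Olig2_null. Of the 13, 3 lay wholly higher in Olig2_null (23.1%, against 15.8% of all tested probes). The gap between the sums leans on 1 of these, Lyz2. It read log2 intensities of 10.47, 9.89 and 10.04 in Olig2_het and 12.78, 12.17 and 12.50 in Olig2_null. Relative to the Olig2_het mean, the list mean was 2.05, 0.55 and 0.65 in Olig2_null replicates 1 to 3. The median difference of the list was 0.74, but 0.24 without Olig2_null replicate 1. Itgam and Ptprc of that list did not meet the detection filter. The part of these cells in the Nr1h3 values was not tested.

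Of the export genes that LXR raises, Apoe and Abcg1 were measured, and neither passed. Apoe, the main lipid carrier of the brain, read 13.26, 13.23 and 13.31 in Olig2_het and 13.71, 12.84 and 13.33 in Olig2_null. The Olig2_null tumours lay on both sides of the tight Olig2_het values, and the difference was 0.03 (95% interval -0.63 to 0.69). Astrocyte markers, of the cells that make much of the Apoe in brain, summed to between 58400 and 73200 in Olig2_het and between 60400 and 75300 in Olig2_null. The sum hides markers that moved in opposite directions. Of the 13 measured, 6 had a higher mean in Olig2_null and 7 a lower one, from -1.44 for Clu to 1.63 for Gfap, and none passed. The part of these cells in the Apoe values was not tested. Abcg1, a sterol exporter, read 8.31, 8.66 and 8.83 in Olig2_het and 7.43, 6.61 and 8.81 in Olig2_null. Replicates 1 and 2 of Olig2_null were low and replicate 3 was level with Olig2_het, and the difference was -0.98 (-2.24 to 0.28, adjusted p = 0.304). Without Olig2_null replicate 3 the Abcg1 difference was -1.58 and passed (adjusted p = 0.0339). Stard4, a carrier of sterol between membranes, differed by 0.32 (-0.37 to 1.00).

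The 3 measured genes of fatty acid synthesis all had a lower mean in Olig2_null, and none passed. The shared direction came largely from 1 tumour. Relative to the Olig2_het mean, the median of the 3 genes was -0.61, 0.04 and -0.06 in Olig2_null replicates 1 to 3. Their median difference was -0.21, but 0.02 without Olig2_null replicate 1. Acaca, acetyl-CoA carboxylase, which commits carbon to fatty acids, read 11.83, 11.97 and 11.27 in Olig2_het and 11.08, 11.48 and 11.48 in Olig2_null, a difference of -0.34 ± 0.28 (SE, adjusted p = 0.493). The stearoyl-CoA desaturases, which introduce the double bond, differed by -0.21 for Scd1 (95% interval -0.87 to 0.45) and -0.04 for Scd2 (-0.74 to 0.66). Of Scd2, Olig2_null replicate 1 gave the lowest value of the 6 (9.55) and replicate 2 the highest (10.51). Fasn, fatty acid synthase, read 4.74, 5.22 and 5.24 in Olig2_het and 5.28, 5.01 and 5.74 in Olig2_null, with detection on 1 array of each group, so its probe gives no level to compare.

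Genes of the same metabolism outside the member list numbered 41 measured of 57 named. Thrsp and Scarb1 passed the threshold, and Scarb1 met the detection filter only through Olig2_null, so their number is not read against the 4.42% of all tested probes. Thrsp, a nuclear protein that responds to thyroid hormone and raises lipogenesis in liver, read 7.10, 7.33 and 7.86 in Olig2_het and 11.48, 9.91 and 10.95 in Olig2_null. All Olig2_null tumours were far higher, by 3.35 ± 0.44 (SE), a 10.2-fold rise (limma adjusted p = 0.0172). The call was lost without Olig2_het replicate 1, 2 or 3 (differences of 3.19, 3.30 and 3.57, adjusted p = 0.0692, 0.0972 and 0.0560). Without background correction, and on the authors' normalized values, the Thrsp difference was 2.61 and passed (adjusted p = 0.027). Scarb1, the receptor for high-density lipoprotein, was detected on no Olig2_het array and on all 3 Olig2_null arrays, so a probe kept by the filter in this way had to be higher in Olig2_null. Its means were 4.73 and 6.13, at least 1.74-fold apart (adjusted p = 0.0411, and 0.0577 with no detection filter). The bound takes each undetected value at the lowest detected signal of its array and holds only for background-corrected values. Without background correction, and on the authors' normalized values, the log2 difference was 0.44 and did not pass (limma adjusted p = 0.114). Scarb1 passed in 6 of 14 other settings, with differences from 0.44 to 1.54, and was lost without any 1 tumour other than Olig2_null replicate 3. Endothelial markers, of cells in which Scarb1 is also known, summed to 3500 to 5240 in Olig2_het and 7300 to 11200 in Olig2_null. Of the 10 measured of 12 named, 8 had a higher mean in Olig2_null (51.5% of all tested probes did). The means of the other 2, Flt1 (-0.16) and Ly6c1 (-0.03), were slightly lower. The part of these cells in the Scarb1 values was not tested.

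The remaining lists had no call. Of 6 measured further genes of sterol and isoprenoid synthesis, Nus1, of dolichol synthesis, differed by 1.18 (adjusted p = 0.0660) and Acat1, the mitochondrial acetoacetyl-CoA thiolase, by -0.59 (adjusted p = 0.387). Of 5 measured genes that process or turn over SREBP and Insig, Mbtps1, the protease that makes the first cut in SREBP, differed by 1.05 (adjusted p = 0.0810) and Ubxd8 by 0.37 (adjusted p = 0.384). All 3 Olig2_null tumours were above all Olig2_het tumours for Nus1, Mbtps1 and Ubxd8, as for 15.8% of all tested probes. These genes were named for the smallest p in their lists, so such a separation is no further support. Per list the median difference was 0.03 for further sterol synthesis, 0.48 for uptake, storage and turnover of sterol (0.12 without Olig2_null replicate 1 and 0.82 without replicate 2), 0.13 for fatty acid genes and 0.38 for SREBP handling.

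Oligodendrocyte markers were lower in the same tumours. All 11 measured of 15 named were lower in every Olig2_null tumour than in every Olig2_het tumour (15.4% of all tested probes were). Past the threshold were 4 of them (1.77% of all tested probes), and the median difference of the 11 was -3.35. Their summed linear intensity ran from 69300 to 75000 in Olig2_het and from 2850 to 49800 in Olig2_null, with none of the 11 undetected on all arrays of a group, while Ermn and Aspa did not meet the detection filter. Relative to the Olig2_het mean, the list mean was -4.82, -4.21 and -1.43 in Olig2_null replicates 1 to 3. The mean of the 14 sterol synthesis enzymes in those tumours was -0.11, 0.45 and -0.07. The tumour with the highest enzyme levels, Olig2_null replicate 2, was thus one of the 2 with the lowest oligodendrocyte markers. Of 11 measured neuron markers none passed in limma (smallest adjusted p = 0.0564). At an unadjusted p under 0.05, 5 of them were lower, beside 13.1% of all tested probes. The median difference of the 11 neuron markers was -2.08, but -1.23 without Olig2_null replicate 1 and -3.76 without replicate 3. Their sum ran from 16800 to 53800 in Olig2_het and from 1910 to 18800 in Olig2_null. Snap25, Nefl and Gad2 of that list did not meet the filter. Fa2h, the fatty acid hydroxylase of myelin lipids, counted in both the fatty acid and the oligodendrocyte list, read 10.60, 10.86 and 10.60 in Olig2_het and 5.58, 5.86 and 9.49 in Olig2_null (difference -3.71, adjusted p = 0.0758).

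**Figure D4:**
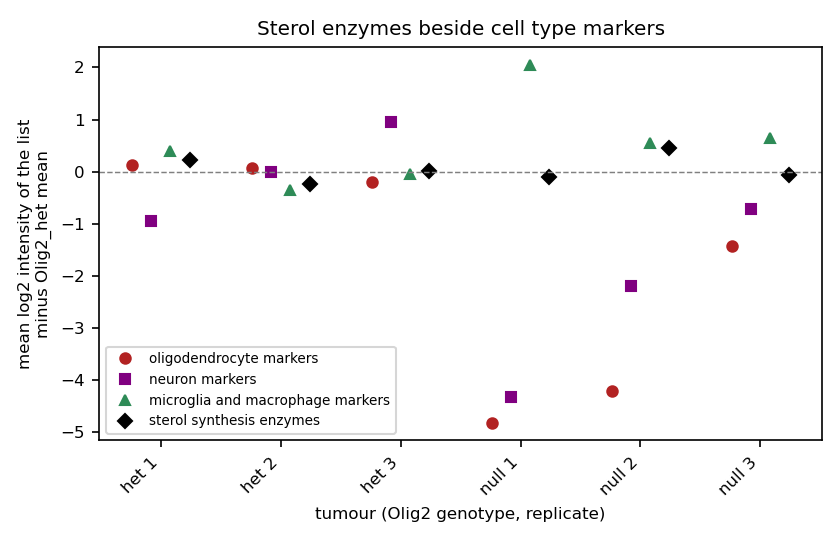
Mean log2 intensity of 3 marker lists and of the 14 sterol synthesis enzymes, relative to the Olig2_het mean (vertical axis), in each of the 6 tumours (horizontal axis). The enzymes (diamonds) stay between -0.23 and 0.45, while the oligodendrocyte markers (circles) reach -4.82 in Olig2_null.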

How the data were processed

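The authors deposited a table of linear signal intensity per bead array probe, not normalized between arrays, with a detection p-value beside each signal, per the file headers. A second deposited table of intensity equalled the quantile-normalized signals, with numbers 1 and 3 exchanged within both groups, so which of those tumours has which age is uncertain. The slide and scanner software were not given in the sources used here. Signals were corrected with neqc in limma 3.58.1 (R 4.3.3; normexp with an offset of 16, quantile, log2), and probes detected (p-value under 0.05) in 3 or more of 6 arrays were tested with lmFit and eBayes, two-sided, with genotype as the only term. P-values were adjusted by Benjamini-Hochberg over all 14606 tested probes, threshold 0.05. The number of arrays limits the precision. Probes were named by the platform's annotation and current GRCm38.p6 symbols (23962 of 23978 named probes matched, and 1719 are unnamed here). A gene's brightest kept probe represents it. The procedure was tested on simulated data. All members were to be named, and of the other pathway lists up to 4 calls, or the 2 smallest p where none passed. Fa2h and the markers named were chosen after their values were seen. Members and lists were chosen with earlier results of these data known. Alternatives covered background correction, normalization, filters, weights, the replicate number as a block, the probe rule and leaving out each tumour.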

Additional observations from a re-analysis of the deposited data

How the results depend on the processing

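Of 476 comparisons of 32 named genes' differences with another setting, 432 kept their direction and side of the threshold, 18 lost a call (Insig2, Thrsp, Scarb1), 8 gained one and 18 changed sign, none of these a call. The settings without background correction and with the authors' normalized values gave equal results, and both are counted in each number of settings. The sign changed with array weights for Lss (0.15) and Scd2 (0.08). Leaving out 1 tumour at a time, the differences ran from -0.28 to 0.20 for Lss, -0.28 to 0.20 for Scd2, -0.33 to 0.02 for Scd1, -0.07 to 0.39 for Mvd, -0.36 to 0.46 for Sqle, -0.08 to 0.73 for Cyp51, -0.44 to 0.29 for Sc4mol, -0.04 to 0.49 for Nsdhl, -0.39 to 0.15 for Dhcr7, -0.76 to 0.19 for Srebf2 and -0.18 to 0.25 for Apoe. The cause was not tested.

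Leaving out 1 tumour at a time gave 9 to 1922 calls over all probes (645 with all), 0 to 3 among member probes, 8 to 11 member probes without overlap, a member median of -0.21 to 0.22 and 0 to 6 other pathway genes. The lowest total came without Olig2_het replicate 2 and the highest without Olig2_null replicate 3. With no background correction, which equals the authors' values, there were 411 calls, 2 among member probes (Insig2 and Ebp) and 1 other pathway gene. With no detection filter there were 230 calls and 1 other pathway gene, and with detection on all 6 arrays 1 other pathway gene. Array weights gave 1860 calls, 2 among members and 5 other pathway genes. An unadjusted p under 0.05 gave 3697, 5 and 14. Detection on all 6 arrays moved the share of calls higher in Olig2_null from 60.0% to 70.1%.

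Same-numbered tumours deviated together at r = 0.194, 0.017 and 0.302, and not every tumour correlated best with its own number, so the numbers are not taken as pairs. The replicate block gave 1382 calls (43.4% higher in Olig2_null) and 4 other pathway genes. Under the block Insig2 did not pass (-1.15, adjusted p = 0.0522), and Nr1h3 did (1.68, adjusted p = 0.0406).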
